A study of Homo sapiens with 8 samples.

Results

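NEAT1 and MALAT1 are nuclear long non-coding RNAs, the first the scaffold of paraspeckles and the second a resident of nuclear speckles. They were followed here together with the mRNAs of the core paraspeckle proteins NONO, SFPQ and PSPC1, which serve as a contrast because their products work in the nucleus while the messages are translated in the cytoplasm. Members were the rows of both count tables that carry these 5 symbols, 5 of the 60664 genes listed, of which 2 are long non-coding RNAs and 3 are mRNAs. All 5 passed the filter on low counts in both compartments, and the lowest member count in any library was 481.

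The study measured RNA by APEX-seq in HEK293T, a transformed line from human embryonic kidney. The cells expressed APEX2, a peroxidase that biotinylates RNA close to it, and the tagged RNA was captured on streptavidin and sequenced. There were 4 groups of 2 libraries each: labelled NLS libraries, with the enzyme in the nucleus, against unlabelled NLS controls, and labelled OMM libraries, with the enzyme on the outer mitochondrial membrane, against unlabelled OMM controls. All groups expressed APEX2 and went through capture, so a control holds what is recovered without labelling and is not the RNA of the whole cell. For NLS a SMARTer stranded kit for total RNA was used, and for OMM a TruSeq stranded mRNA kit, which selects polyadenylated RNA. The sample titles add ribominus for NLS and trizol for OMM, while the sources differ on how captured RNA was released. Compartment, kit, RNA selection and RNA preparation coincide and cannot be told apart. Nothing in the labels tells whether replicate libraries stem from separate cultures. The p-values therefore reflect library-to-library spread alone, part or all of which may be technical.

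Total counts ranged from 8039176 to 9531568 in labelled NLS libraries, 20746393 to 21096586 in NLS controls, 34705126 to 52421161 in labelled OMM libraries and 35165227 to 41660431 in OMM controls. The biological coefficient of variation, edgeR's measure of spread between libraries, was 0.166 at NLS and 0.958 at OMM, so a change of a given size is harder to detect at OMM. Of 7 marker genes of HEK293T cells, 6 had counts in all 8 libraries, among them VIM at 103 to 474 CPM (counts per 1000000, scaled between the libraries of a table). Summed CPM of those 7 markers was 223 to 260.1 in labelled NLS libraries and 784 to 835 in NLS controls. Of these markers 6 of 7 were lower, where 39.8% of protein-coding genes and 28.5% of all tested genes were lower at NLS. Their part in the NLS results was not tested. Markers of blood, liver, fibroblasts, endothelium and beta cells summed to at most 0.623 CPM in labelled NLS libraries and 2.11 CPM in NLS controls, and were at 0 in all OMM libraries.

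A paraspeckle forms around the long form of NEAT1, which SFPQ and NONO bind and stabilise and PSPC1 joins. A short, polyadenylated form that begins at the same start does not build paraspeckles by itself. The long form and MALAT1 do not end in an ordinary poly(A) tail: RNase P cuts each just before a tRNA-like fold, and the new end is protected by a triple helix of U-rich stretches with an A-rich tail. MALAT1 is among the most abundant non-coding RNAs of mammalian nuclei and gathers in speckles beside splicing factors.

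NEAT1 (ENSG00000245532) spans 22767 bases at chr11:65422774-65445540 and MALAT1 (ENSG00000251562) 8829 bases at chr11:65497688-65506516, both on the plus strand of GRCh38 (GENCODE 29), 52147 bases apart. Both are annotated as lincRNA genes. NONO (ENSG00000147140) lies at chrX:71283192-71301168 on the plus strand, SFPQ (ENSG00000116560) at chr1:35176378-35193148 and PSPC1 (ENSG00000121390) at chr13:19674752-19783019, both on the minus strand. The long NEAT1 transcript, NEAT1-202, has 22743 bases, of which the last 19027 lie beyond every other annotated NEAT1 transcript.

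The following 120 bases of each RNA, just before its tRNA-like gene, are shown because they are the ends of the 2 transcripts and because one kit selected RNA by its poly(A) tail. They are plus-strand sequence from GENCODE 29 transcripts (GRCh38), and capitals mark every run of at least 8 bases found in both.
NEAT1 end, chr11:65445421-65445540: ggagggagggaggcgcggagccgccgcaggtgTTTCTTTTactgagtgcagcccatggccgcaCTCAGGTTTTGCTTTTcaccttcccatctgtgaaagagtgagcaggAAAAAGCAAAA
MALAT1 end, chr11:65505997-65506116: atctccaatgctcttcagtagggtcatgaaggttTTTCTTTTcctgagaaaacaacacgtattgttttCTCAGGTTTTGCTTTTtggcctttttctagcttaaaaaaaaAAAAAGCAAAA

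The 2 ends share 3 runs in the same order, a U-rich one of 8 bases (TTTCTTTT), one of 16 bases (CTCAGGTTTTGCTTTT) and, at the very end, an A-rich one of 11 bases (AAAAAGCAAAA). The longest stretch of A is 5 bases at the NEAT1 end and 13 bases at the MALAT1 end. Both tables also list small genes that lie within the NEAT1 and MALAT1 transcripts, and these serve below as windows on parts of each RNA. Those that carry the comparison of the NEAT1 forms are a microRNA gene near the 3′ end, in the part that the long form alone covers, and 3 conserved segments near the 5′ end that both forms cover, of which the one with the most counts at NLS is shown. No capitals are used in these.
MIR612 window, chr11:65444458-65444557: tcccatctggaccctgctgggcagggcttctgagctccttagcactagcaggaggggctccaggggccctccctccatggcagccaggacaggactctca
5′ window ENSG00000277599, chr11:65423960-65424118: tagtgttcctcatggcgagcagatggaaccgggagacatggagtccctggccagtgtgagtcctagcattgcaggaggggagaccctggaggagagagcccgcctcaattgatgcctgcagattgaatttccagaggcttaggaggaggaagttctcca

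With nuclear labelling the scaled levels (CPM) of NEAT1 and MALAT1 were higher, those of NONO and SFPQ mRNAs lower, and that of PSPC1 mRNA nearly the same. CPM is relative to the other RNAs of a library, so amounts recovered were not measured. The results for SFPQ and PSPC1 depended on the scaling. With labelling at the mitochondrial membrane none of the 5 changed past the test, where 0.194% of genes did. NEAT1 had 1274 and 1440.4 CPM in the labelled NLS libraries, against 86.7 and 100 CPM in the NLS controls (14422 and 13873 counts against 1518 and 1737). The log2 fold change was 3.86 ± 0.13 (SE), or 14.5-fold, with an adjusted p of 1.46e-05 in edgeR's quasi-likelihood test. The groups do not overlap, and libraries of a group lie within 1.15 times of each other.

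MALAT1 had 5239 and 6257 CPM in the labelled NLS libraries, against 1128 and 1183 CPM in the NLS controls. Its log2 fold change was 2.31 ± 0.13, or 4.97-fold, with an edgeR adjusted p of 1.82e-05. In the joint fit of all 8 libraries it was 2.30 and did not pass (adjusted p = 0.0595). That fit gives a gene the same spread in both compartments, and the spread between libraries was larger at OMM. Both labelled libraries again lie above both controls, at a smaller ratio than for NEAT1 although MALAT1 was the more abundant RNA in every NLS library. By mean CPM MALAT1 was 2nd of 35512 genes with a count in the labelled NLS libraries and 86th of 33617 in the NLS controls, while NEAT1 was 14th in labelled NLS libraries and 3137th in NLS controls. Together the 2 RNAs took 0.774% and 0.922% of the counts of the labelled NLS libraries, against 0.103% and 0.106% in the NLS controls.

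The mRNA of NONO, the RNA-binding partner of both other proteins, had 469 and 455 CPM in the labelled NLS libraries, against 979 and 1049.6 CPM in the NLS controls. It fell by 1.13 ± 0.10 on the log2 scale (SE, edgeR adjusted p = 5.8e-05), with no overlap of the groups. SFPQ, which dimerises with NONO and is essential for paraspeckles, had 1085 and 1198 CPM in the labelled NLS libraries, against 1651 and 1689 CPM in the NLS controls. Its mRNA fell by 0.55 ± 0.10 (edgeR adjusted p = 0.00286), also with no overlap. That call depended on scaling: with library size alone the log2 fold change was -0.03 (adjusted p = 0.825), and with scaling on protein-coding genes -0.27 (adjusted p = 0.0558).

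PSPC1, the third protein of this family, had 119.7 and 122 CPM in the labelled NLS libraries and 118 and 125 CPM in the NLS controls. The labelled libraries lie between the controls, and the log2 fold change was -0.01 ± 0.09 (edgeR adjusted p = 0.938). Its sign turned with the scaling, to 0.51 ± 0.10 (adjusted p = 0.00252) with library size alone and 0.27 ± 0.09 (adjusted p = 0.0411) with scaling on protein-coding genes. Over all tested genes the median was 0.14, and it became 0.66 with library size alone and 0.41 with scaling on protein-coding genes.

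At NLS, 2 of the 5 members were thus higher and 2 lower, where 28.8% of the 20858 genes tested were called higher and 28.5% lower, 57.3% in all. With library size alone 9122 genes were higher and 3351 lower, and of the members 3 were higher and 1 lower, so this balance follows the scaling. Counts of genes called higher depended on the labelled libraries, with 5999 genes in all, 3196 without labelled library 1 and 3077 without labelled library 3, whereas no call of a member was lost on leaving out any NLS library, with the lone library of an arm then assumed to vary like the other groups. Against genes of their own kind, NEAT1 was 159th from the top of 1071 lincRNA genes and MALAT1 440th, and the median lincRNA gene had a log2 fold change of 1.88. Of those lincRNA genes 47.3% were higher and 2.33% lower. Among 13856 protein-coding genes, whose median log2 fold change was -0.26, with 19.4% higher and 39.8% lower, the share with a smaller fold change was 17.6% for NONO, 38.7% for SFPQ and 59.5% for PSPC1.

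**Figure D1:**
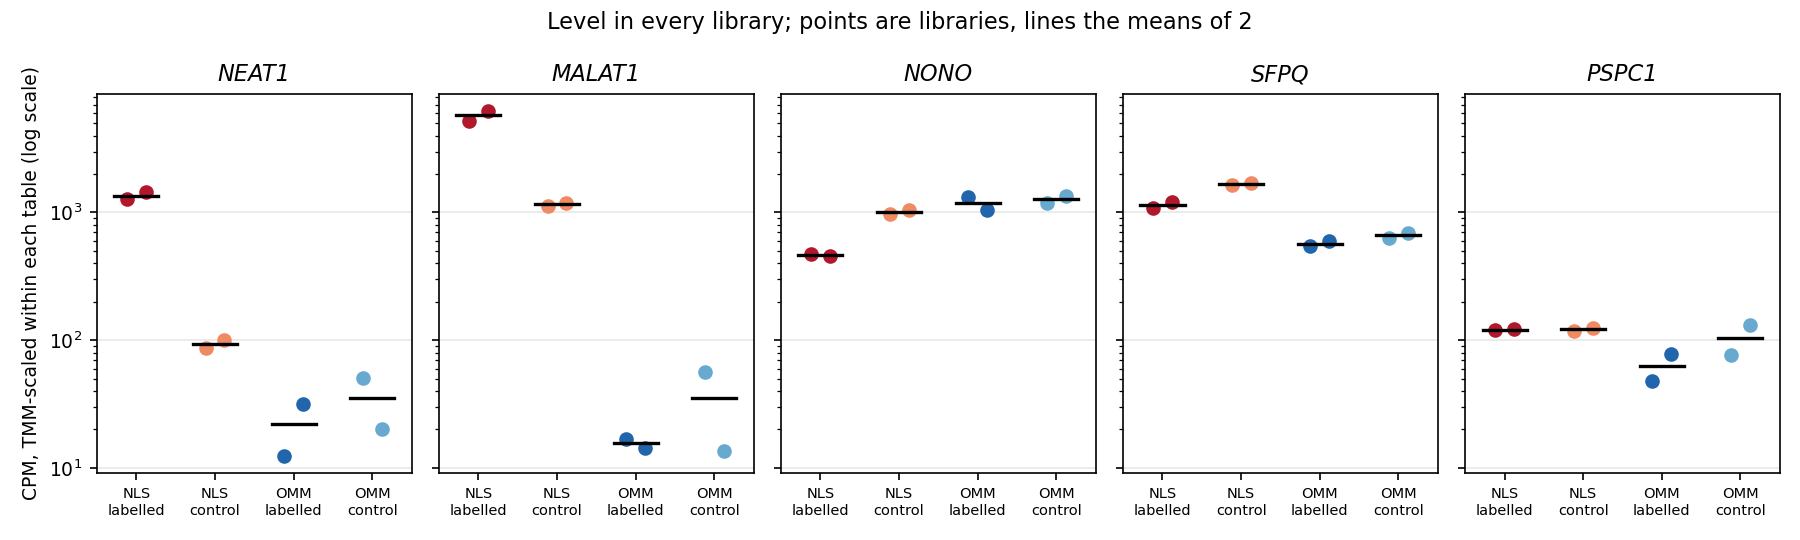
Level of each gene in every library, as CPM on a log axis, with 2 libraries per group as points and their mean as a line. NEAT1 and MALAT1 stand highest in the labelled NLS libraries, at 1274 to 1440.4 and 5239 to 6257 CPM, above the NLS controls at 86.7 to 100 and 1128 to 1183 CPM, while NONO at 455 to 469 CPM in labelled NLS libraries lies below the NLS controls. NLS and OMM libraries were scaled apart.

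At OMM, NEAT1 had 12.5 and 31.8 CPM in the labelled libraries, against 50.5 and 20.1 CPM in the OMM controls. MALAT1 had 16.9 and 14.3 CPM in the labelled OMM libraries, against 56.3 and 13.6 CPM in the OMM controls. For both RNAs the groups overlap, and the control library numbered 3 in the table stands above the other 3 OMM libraries. The log2 fold change was -0.67 ± 0.67 for NEAT1 (edgeR adjusted p = 0.845) and -1.16 ± 0.71 for MALAT1 (edgeR adjusted p = 0.619). Without OMM control library 3 these became 0.14 ± 0.89 and 0.20 ± 1.13, so the direction at OMM rests on that library.

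The 3 mRNAs were well represented at OMM. NONO had 1315 and 1054 CPM in the labelled OMM libraries and 1184 and 1357 CPM in the OMM controls, a log2 fold change of -0.10 ± 0.19 (edgeR adjusted p = 0.964) that became 0.06 without labelled OMM library 3 and 0.01 without OMM control library 4. SFPQ had 544 and 598 CPM in the labelled OMM libraries and 632 and 694 CPM in the OMM controls, which do not overlap, yet its log2 fold change of -0.22 ± 0.18 did not pass the test (edgeR adjusted p = 0.782). PSPC1 had 47.9 and 78.6 CPM in the labelled OMM libraries and 76.6 and 132 CPM in the OMM controls (-0.72 ± 0.40, edgeR adjusted p = 0.572). None of the 5 members was called at OMM, where 0.139% of 14438 genes were called higher, 0.0554% lower and 0.194% in all, and tests that miss the threshold at this spread do not show equal levels. Unadjusted, the 5 p-values ran from 0.107 for PSPC1 to 0.605 for NONO, and DESeq2 called none of the 5 either. Leaving out any 1 OMM library moved the number of genes called to between 128 and 335 higher and between 76 and 279 lower, against 20 higher and 8 lower with all 4.

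**Figure D2:**
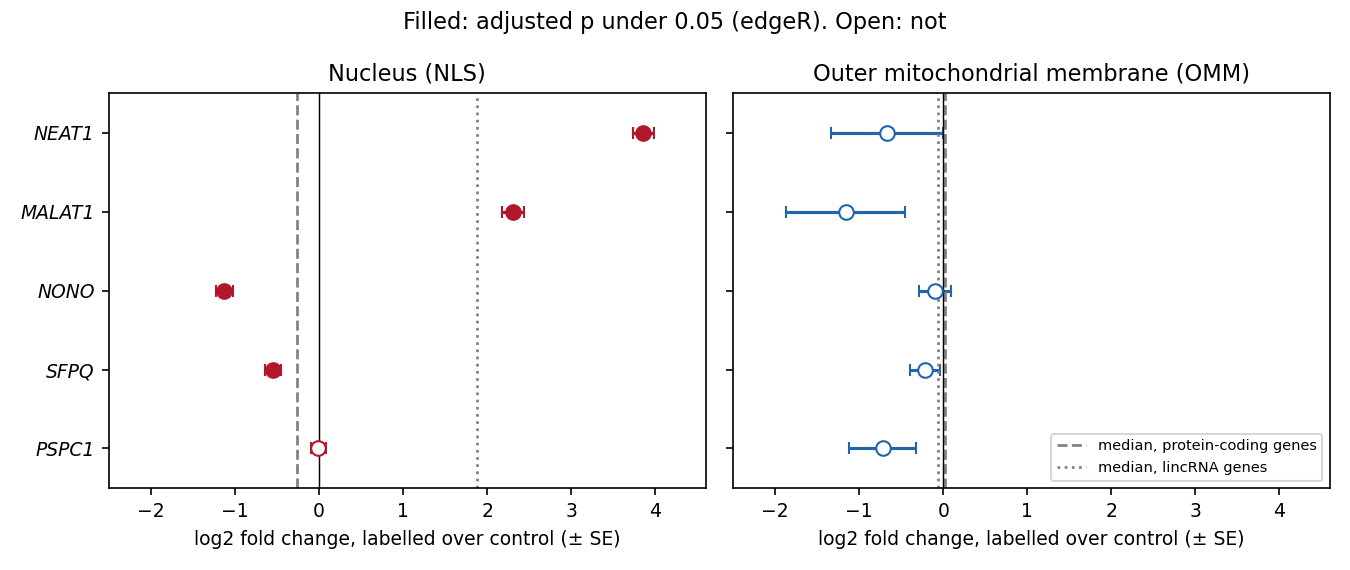
Log2 fold change of labelled over control libraries with its SE for each of the 5 genes, at NLS on the left and OMM on the right, filled where edgeR's adjusted p is under 0.05. At NLS the points run from -1.13 for NONO to 3.86 for NEAT1 with SEs of 0.09 to 0.13, and at OMM all 5 are open, with SEs of 0.18 to 0.71. Grey lines give the medians of protein-coding and lincRNA genes.

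Whether labelling acted differently in the 2 compartments was tested as the interaction term of a fit of all 8 libraries, with the same spread for a gene in both compartments. The NLS effect exceeded the OMM effect by 4.53 ± 0.78 on the log2 scale for NEAT1 (edgeR adjusted p = 0.0212), and for NONO it was lower by 1.06 ± 0.20 (a difference of -1.06, edgeR adjusted p = 0.0282). MALAT1 differed by 3.46 ± 0.82 and did not pass (edgeR adjusted p = 0.054). The differences for SFPQ (-0.36 ± 0.15, edgeR adjusted p = 0.225) and PSPC1 (0.69 ± 0.44, edgeR adjusted p = 0.433) did not pass either. Of 23178 genes in this fit, 1.41% were called higher, 6.73% lower and 8.14% in all.

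These differences depended on scaling and on single libraries. NONO no longer passed with DESeq2 size factors (-0.64, adjusted p = 0.141), library size alone (-0.59, 0.179) or scaling on protein-coding genes (-0.69, 0.116), and NEAT1 no longer passed without a filter on low counts (4.56, 0.0857). NEAT1 no longer passed without labelled NLS library 3 (4.52, adjusted p = 0.0576), NLS control library 1 (4.46, 0.175) or NLS control library 3 (4.67, 0.163). NONO also failed to pass without labelled NLS library 1 (-1.05, adjusted p = 0.108), labelled NLS library 3 (-0.96, 0.154), NLS control library 1 (-1.07, 0.161) or NLS control library 3 (-0.97, 0.181). In these fits 1 arm holds a single library, and the spread comes from the other groups. MALAT1 passed without OMM control library 3 (2.08, adjusted p = 0.0097) or OMM control library 4 (4.17, 0.0128). edgeR called 0 genes of any kind in this fit without NLS control library 1, and 0 without NLS control library 3.

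Per kilobase of exon, which allows levels to be set between genes, the order of the 5 was not the same in the 4 groups. In labelled NLS libraries MALAT1 led with 651 ± 81.5 CPM per kb (SD, n = 2), before SFPQ at 154 ± 10.7, NONO at 87.4 ± 1.85, NEAT1 at 59.6 ± 5.17 and PSPC1 at 25.1 ± 0.325. In NLS controls SFPQ led with 225 ± 3.54 CPM per kb, before NONO at 192 ± 9.37, MALAT1 at 131 ± 4.37, PSPC1 at 25.2 ± 1.05 and NEAT1 at 4.1 ± 0.412. In both groups, with all exon bases as length, each step of the order is larger than the SDs of the neighbours. MALAT1 thus stood above NONO and SFPQ in labelled NLS libraries and below both in NLS controls. The place of NEAT1 rests on the length used: over the 3740 bases that its shorter transcripts span, it had 363 ± 31.5 CPM per kb in labelled NLS libraries and 25 ± 2.51 in NLS controls, the second within the SDs of PSPC1.

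In labelled OMM libraries NONO led with 224 ± 34.9 CPM per kb, before SFPQ at 76.9 ± 5.18, PSPC1 at 13.1 ± 4.51, MALAT1 at 1.77 ± 0.21 and NEAT1 at 0.973 ± 0.601. In OMM controls the order was the same, with NONO at 240.1 ± 23, SFPQ at 89.3 ± 5.86, PSPC1 at 21.7 ± 8.15, MALAT1 at 3.95 ± 3.42 and NEAT1 at 1.55 ± 0.946. In OMM controls MALAT1 and NEAT1 do not differ beyond their spread. In labelled OMM libraries MALAT1 had 1.91 and 1.62 CPM per kb and NEAT1 0.548 and 1.4, which lie close but do not overlap. Over 3740 bases NEAT1 would stand at 5.92 ± 3.65 in labelled OMM libraries and 9.44 ± 5.75 in OMM controls. Since the 2 tables come from different kits and were scaled apart, levels are not compared across them.

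A ratio of 2 genes inside a library does not depend on scaling between libraries. NEAT1 made up 0.243 and 0.23 of the MALAT1 count in labelled NLS libraries, against 0.0769 and 0.0845 in NLS controls. On the log2 scale the difference was 1.55, or 2.93-fold, and it stayed between 1.48 and 1.62 when a library was left out. NEAT1 thus rose further than MALAT1 in both labelled libraries, without overlap. With 2 libraries against 2 an exact two-sided permutation test cannot give a p below 0.333, which is the value here. At OMM the ratio was 0.739 and 2.23 in labelled libraries and 0.899 and 1.48 in controls, which overlap (exact permutation p = 1).

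NEAT1 and MALAT1 together had 3.89 and 4.34 times the summed count of the 3 mRNAs in labelled NLS libraries, against 0.442 and 0.448 times in NLS controls. The difference in log2 ratio was 3.21, or 9.23-fold, with no overlap (exact permutation p = 0.333, the smallest possible). At OMM the same ratio was 0.0154 and 0.0266 in labelled libraries and 0.0564 and 0.0154 in controls, which overlap. In every OMM library the 2 RNAs were thus a small fraction of the 3 mRNAs, whether labelled or not.

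The 3 mRNAs also moved unequally, in a comparison added after their values were seen. SFPQ had 2.31 and 2.63 times the NONO count in labelled NLS libraries, against 1.69 and 1.61 times in NLS controls, a log2 difference of 0.58. PSPC1 had 0.255 and 0.268 times the NONO count in labelled NLS libraries, against 0.12 and 0.119 times in NLS controls, a log2 difference of 1.12. Neither ratio overlaps between the groups at NLS, and both overlap at OMM.

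**Figure D3:**
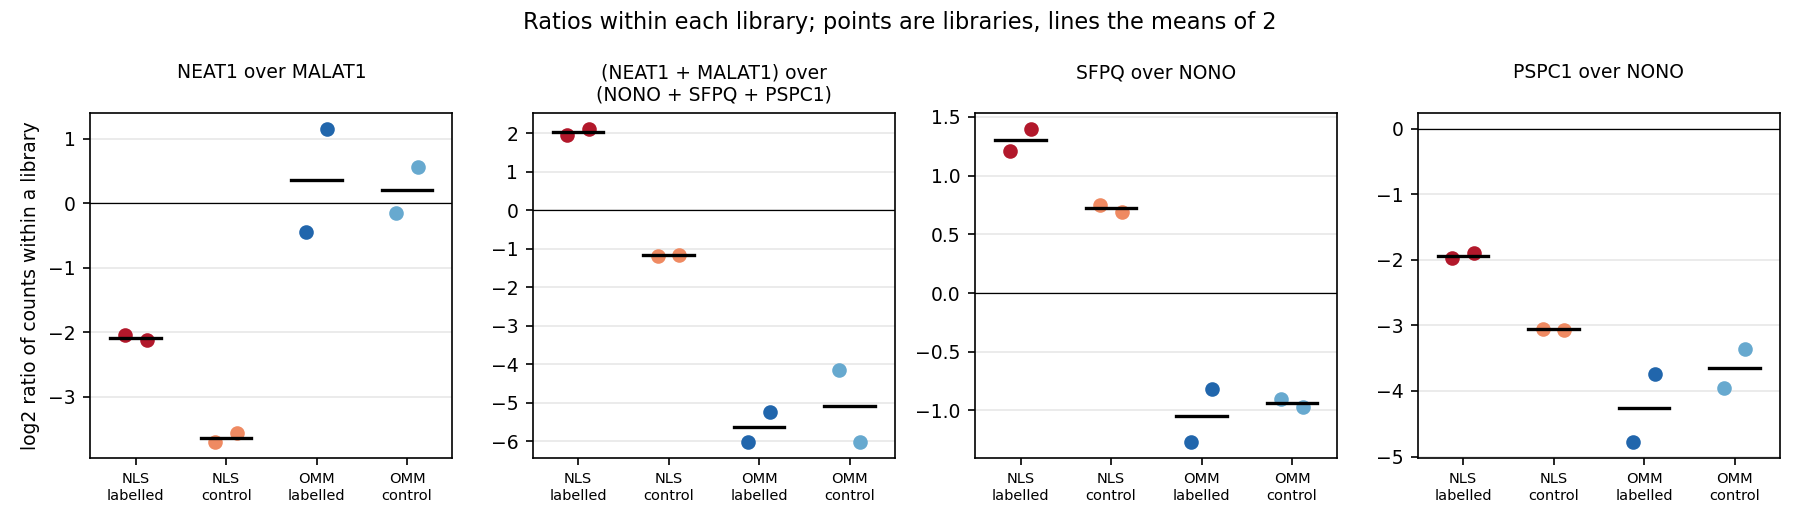
Log2 ratio of counts within each library for NEAT1 over MALAT1, the 2 non-coding RNAs over the 3 mRNAs, SFPQ over NONO and PSPC1 over NONO, with libraries as points and group means as lines. At NLS labelled libraries lie above controls in all 4 panels, by 1.55, 3.21, 0.58 and 1.12, and at OMM the groups overlap in all 4. The ratios share genes, and those over NONO were added after their values were seen.

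Whole-gene counts do not tell the NEAT1 forms apart, so the windows inside the gene were read for this, a choice made after the values were seen. The MIR612 window, 21684 bases from the start, had 87 and 59 counts in labelled NLS libraries, against 0 and 2 in NLS controls, and 0 in all OMM libraries. With so few counts in the controls, and a window chosen for its values, no fold or test is given. Of the 148 counts in this window 146 thus came from the labelled NLS libraries.

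The 3 windows that both forms cover start 499, 864 and 1186 bases from the start of the gene and add up to 384 bases. They held 982 and 845 counts in labelled NLS libraries, against 194 and 160 in NLS controls, 8.58 times the control rate (95% exact interval 7.65 to 9.64, for counting error). As a description, their log2 fold changes were 3.22 ± 0.33 for ENSG00000278144, 3.11 ± 0.24 for ENSG00000278050 and 3.03 ± 0.30 for ENSG00000277599 (SE), beside 3.86 ± 0.13 for the whole gene.

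Set against these 3 windows, the MIR612 window made 8.14% of the summed window counts in the first labelled NLS library (95% Clopper-Pearson interval 6.57 to 9.94%) and 6.53% in the other (5.01 to 8.34%). In the NLS controls it made 0% (0 to 1.88%) and 1.23% (0.15 to 4.39%). The intervals cover counting error alone, because without molecular identifiers several reads can stem from 1 molecule. Since the window was chosen for its values, they serve as a description and not as a test. By length the MIR612 window is 20.7% of the 4 windows. At OMM the 5′ windows had 216 and 359 counts in labelled libraries and 363 and 0 in controls. All 216 lay in ENSG00000278050, and the control with 0 window counts had 712 counts for NEAT1. The MIR612 window made 0%, with upper interval ends of 1.69% and 1.02% in labelled OMM libraries and 1.01% in the control with counts. Counts that lie so unevenly may stem from few molecules, so these ends can be too low.

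The 5′ windows are 1.69% of the length of NEAT1. Their counts came to 6.81% and 6.09% of the NEAT1 count in labelled NLS libraries, against 12.8% and 9.21% in NLS controls. At OMM they came to 32.7% and 31.1% in labelled libraries, against 18.5% and 0% in controls. By length, counts were denser in the 5′ windows than over the gene in every library but one, and at NLS less so with labelling. A short window can also hold reads that reach past its edges, which raises its share anywhere in a gene. The window ENSG00000278217 inside MALAT1 had 1066 and 1503 CPM per kb in labelled NLS libraries, against 593 and 709 for MALAT1. In NLS controls it had 384 and 378, against 128 and 134, and in any OMM library at most 3 counts. How much of the 5′ density this makes up was not tested. Whether a read in a window was also counted for NEAT1 is not stated, but 2 overlapping identifiers for MATR3 have nearly equal counts (4930 and 4747 in the first labelled NLS library), as happens when such reads count for both.

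**Figure D4:**
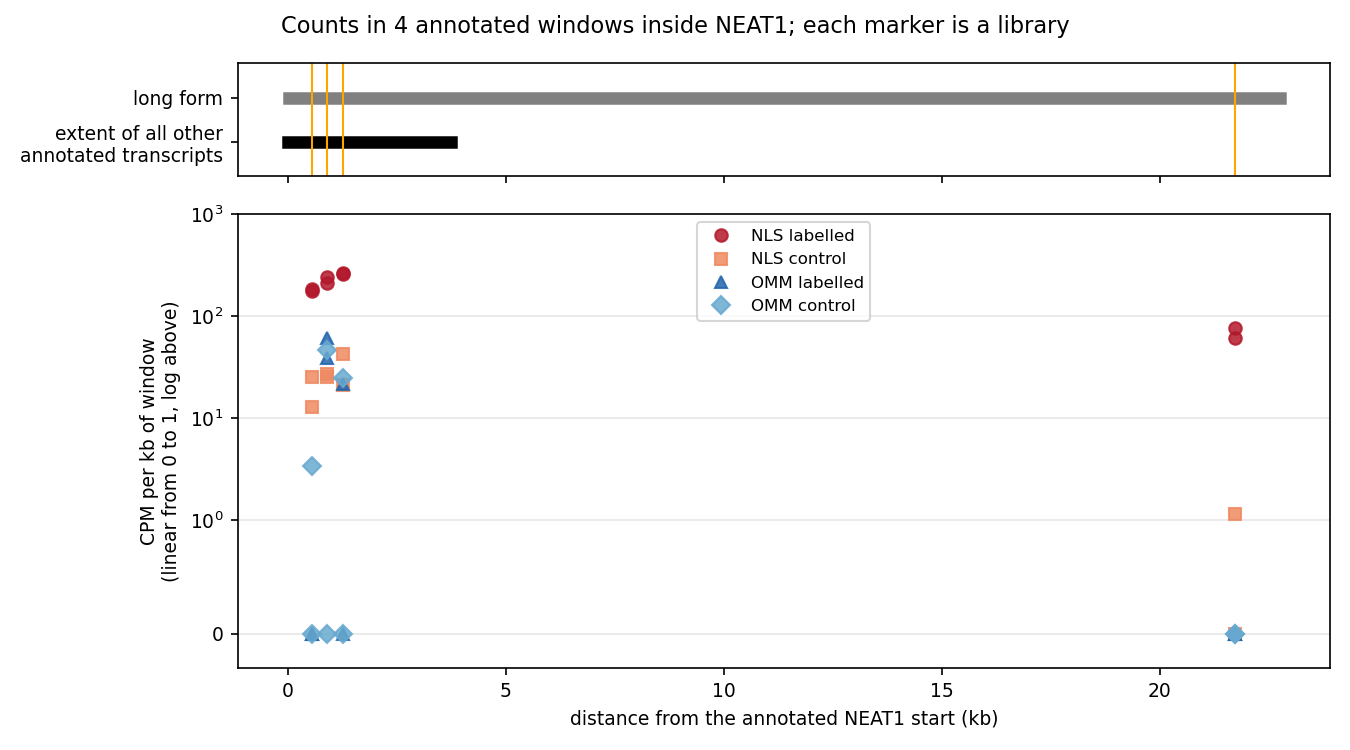
Counts in 4 annotated windows inside NEAT1, as CPM per kilobase of window, against distance from the annotated start, with each marker a library. Upper bars show the long form and the extent of all other annotated NEAT1 transcripts. At about 21.7 kb only NLS libraries have counts, 76.8 and 61.3 CPM per kb when labelled against 0 and 1.15 in controls.

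Within MALAT1, a conserved segment of 95 bases (ENSG00000278217, chr11:65502914-65503008) had 1147 and 1375 counts in labelled NLS libraries, against 638 and 624 in NLS controls. Its log2 fold change was 1.75 ± 0.17, beside 2.31 ± 0.13 for MALAT1 as a whole. The tRNA-like RNA cut from the end of MALAT1, known as mascRNA (ENSG00000274072, chr11:65506117-65506173, 57 bases), had 3 and 5 counts in labelled NLS libraries and 0 and 3 in NLS controls, too few for a test. A gene on the opposite strand of MALAT1 (ENSG00000270117) had 0 and 1 counts in labelled NLS libraries and 0 in NLS controls, and the antisense RNA TALAM1 was matched to no row and has no value here. PSPC1 overlaps PSPC1-AS2, which runs on the opposite strand and had 10 and 11 counts in labelled NLS libraries and 0 in NLS controls, small beside the 1174 to 1355 counts of PSPC1 in labelled NLS libraries.

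The genes whose pattern over the 8 libraries came nearest to NEAT1, each pattern centred within its table, were MIR924HG, a microRNA host RNA (root-mean-square difference 0.25 on the log2 scale), the small RNA gene ENSG00000277577 (0.48) and FTX (0.52), out of 9458 candidates with a median of 1.67. Their log2 fold changes at NLS were 3.36 ± 0.21, 2.75 ± 0.10 and 3.04 ± 0.13. Near to MALAT1 were CACNA2D3, which encodes a calcium channel subunit (0.30), and PCBP1-AS1 (0.33), against a median of 1.23, with log2 fold changes of 2.14 ± 0.24 and 1.90 ± 0.15 at NLS. NEAT1 and MALAT1 differed by 0.71 from each other. MALAT1 was 14th nearest to NEAT1, whereas NEAT1 was 255th nearest to MALAT1. These distances are descriptions over 8 libraries that share groups and scaling.

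Other nuclear non-coding RNAs gave a frame for NEAT1 and MALAT1 at NLS. Of 7 listed, 6 were tested, 5 were higher and 0 lower, with a median log2 fold change of 2.74 beside 0.14 over all tested genes and 47.3% higher among lincRNA genes. In the joint fit, where far fewer genes of every kind were called higher, 3 were higher. KCNQ1OT1, the imprinted antisense RNA, changed by 4.14 ± 0.15, and PVT1 by 3.39 ± 0.13, so that NEAT1 lay between them and MALAT1 below both. FTX (3.04 ± 0.13) and MIR17HG (2.44 ± 0.16) also lay above MALAT1, and JPX (1.70 ± 0.09) below. TUG1 had 217 CPM in labelled NLS libraries and 217 CPM in NLS controls on average. Of 5 non-coding RNAs known from the cytoplasm, GAS5 (0.66 ± 0.11) and DANCR (0.39 ± 0.14) were higher and NORAD, which binds PUMILIO proteins, fell by 1.02 ± 0.10, with a list median of 0.28. DANCR no longer passed without labelled library 1 (adjusted p = 0.0632), labelled library 3 (0.0947) or control library 1 (0.188).

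Of the mRNAs of 27 other proteins found in paraspeckles, 5 were higher and 16 lower at NLS, with a median log2 fold change of -0.65. Among all protein-coding genes 19.4% were higher and 39.8% lower, with a median of -0.26. With library size alone 9 of the 27 were higher and 11 lower. That scaling moved the median of all tested genes from 0.14 to 0.66, so the shares above are not its background. NUDT21, a cleavage factor that favours the short form of NEAT1 by its poly(A) site, fell by 1.78 ± 0.11, and HNRNPK, which favours the long form, fell by 1.46 ± 0.10. AKAP8L was higher by 1.01 ± 0.10 and RBM14, needed for paraspeckle assembly, by 0.61 ± 0.11, though RBM14 overlaps a readthrough gene and is uncertain. Without labelled library 3, 3 of these mRNAs were higher. NUDT21, SRSF2 and NKTR overlap genes on the opposite strand and are uncertain as well, since the strand setting of the counting is not given.

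Of 19 mRNAs for proteins of nuclear speckles, where MALAT1 gathers, 3 were higher and 12 lower, with a median log2 fold change of -0.39, beside 19.4% higher and 39.8% lower of all protein-coding genes. NKTR (1.50 ± 0.11) and SRSF11 (0.74 ± 0.11) were higher, and the splicing factors SRSF2 and THRAP3 had log2 fold changes of -1.29 ± 0.09 and -1.21 ± 0.09. With library size alone the counts were 7 higher and 4 lower, and with scaling on protein-coding genes 5 higher and 6 lower, so the balance of this list follows the scaling. The median of all tested genes moved too, from 0.14 to 0.66 and 0.41, so the shares above are no background for these counts.

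RNase P and RNase Z are the enzymes that cut the tRNA-like fold off both RNAs. Of 12 genes for them, 0 were higher and 8 lower at NLS (median -0.62). Among all protein-coding genes 19.4% were higher and 39.8% lower (median -0.26), and among genes of every kind 28.8% and 28.5%. RPP25 and POP7, protein subunits of RNase P, had log2 fold changes of -1.65 ± 0.15 and -1.97 ± 0.19. Without labelled library 3, 4 of the 12 were lower, as were 3 with library size alone. Of 16 genes beside NEAT1 and MALAT1 on chromosome 11, 15 were tested, 2 were higher and 5 lower (median -0.16), against the same shares. With library size alone 5 were higher and 4 lower, and in the joint fit 0 were higher and 1 lower. For both lists the shares of all genes given here hold for the main fit alone. With library size alone the median of all tested genes was 0.66 instead of 0.14. In the joint fit fewer genes of every kind were called. EHBP1L1 (1.84 ± 0.56) and LTBP3 (0.78 ± 0.16) were higher, and RELA, a subunit of NF-kappaB, and ZNRD2 had log2 fold changes of -1.36 ± 0.13 and -1.42 ± 0.16. EHBP1L1 lost its call without labelled library 1 (adjusted p = 0.224) or 3 (0.0858) and LTBP3 without labelled library 1 (0.0632). At OMM 0 of the 82 genes of all these lists that were tested passed in edgeR, where 0.194% of all tested genes did. An unadjusted edgeR p under 0.05 was seen for 13, and the share of all genes at such a p is not given here. DESeq2 called 3 higher and 10 lower, and it called many more genes of every kind than edgeR.

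**Figure D5:**
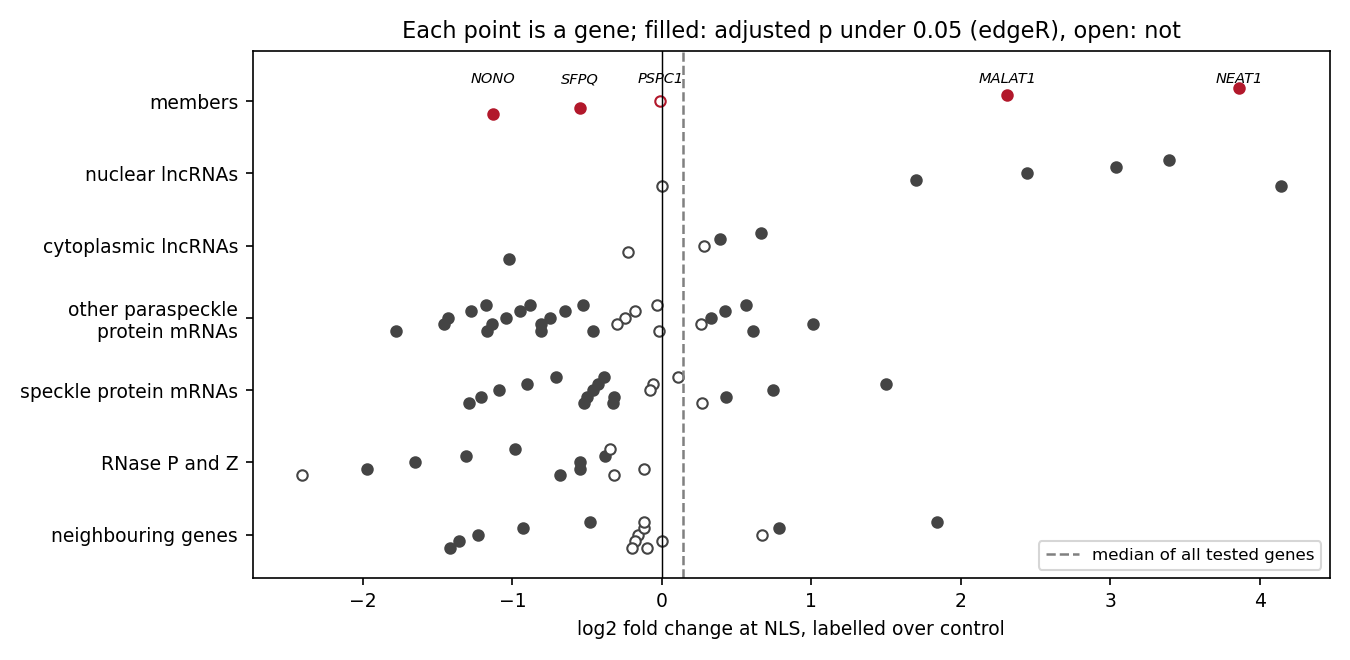
Log2 fold change of labelled over control NLS libraries for the 5 genes in the top row and the lists in the rows beneath, each point a gene, filled where edgeR's adjusted p is under 0.05. NEAT1 (3.86) and MALAT1 (2.31) lie in the range of the nuclear non-coding RNAs, whose median is 2.74, and NONO (-1.13) and SFPQ (-0.55) in that of the other paraspeckle mRNAs, whose median is -0.65. The dashed line is the median of all tested genes, 0.14.

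In the authors' deposited table the log2 fold changes at NLS were 3.91 for NEAT1, 2.36 for MALAT1, -1.09 for NONO, -0.51 for SFPQ and 0.03 for PSPC1. At OMM the authors' deposited table gives -0.66, -1.14, -0.09, -0.21 and -0.72 in the same order. The sign differs from the values above for PSPC1 at NLS alone.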

How the data were processed

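RNA captured after APEX2 labelling was sequenced from 4 groups of 2 HEK293T libraries. The deposited counts are reads per gene, made with HTSeq after STAR, per the submitters' processing notes, which also name Trimmomatic, SAMtools, bedtools, DESeq2, GRCh38.p13 and hg38. Tool versions and the strand setting: not given in the sources used here. A log2 fold change and a p-value for each gene were deposited too. Columns were assigned to groups by name, and their numbers differ from those of the sample titles. The tables hold 4 count columns and 2 comparison columns that match no sample and were not used.

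Counts were tested with edgeR 4.0.16 (R 4.3.3): TMM scaling, filterByExpr (minimum count 10), robust quasi-likelihood F test, two-sided, Benjamini-Hochberg adjustment over all tested genes, threshold 0.05. NLS and OMM libraries were fitted apart, and jointly for the interaction, where a gene has the same spread at NLS and OMM. SE was taken as the absolute log2 fold change over the root of F. CPM uses the same factors. Coordinates and sequences come from GENCODE 29 (GRCh38). The fit was tested on simulated data: of genes changed by 2 on the log2 scale 67% were called at NLS and 21.1% at OMM. Of genes changed by 1, 57.9% were called at NLS and 2.15% at OMM.

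Alternatives were other scaling factors, no filter, DESeq2 1.42.0, no robust step, a joint fit and leaving out each library. Replicate libraries differed beyond sampling noise in all groups (chi-square per degree of freedom 4.55 to 225). Members and lists were chosen with earlier results of these data known. Named genes are the members, the 3 nearest in pattern to NEAT1 and to MALAT1, and per list the 2 highest and 2 lowest called at NLS, with the windows, FTX, MIR17HG, JPX, TUG1, PSPC1-AS2 and MATR3 added after their values were seen. One gene named by this rule is not reported here.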

Additional observations from a re-analysis of the deposited data

Results flagged for a closer look

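The interaction test called a difference in labelling effect between the compartments for 2 members, and neither call held throughout. For NEAT1 the difference of NLS effect minus OMM effect was 4.53 on the log2 scale, with an effect of 3.86 at NLS and -0.67 at OMM, and both labelled libraries above both controls at NLS alone. It no longer passed in 3 of 8 fits without 1 library, nor without a filter on low counts (adjusted p = 0.0857). For NONO the difference was -1.06, with effects of -1.13 at NLS and -0.10 at OMM. It no longer passed in 4 of 8 fits without 1 library, nor with DESeq2 size factors (-0.64), library size alone (-0.59) or scaling on protein-coding genes (-0.69). Compartment, kit, RNA selection and RNA preparation coincide and cannot be told apart in either difference.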

How the results depend on the processing

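At NLS the calls of NEAT1, MALAT1 and NONO held under every alternative, apart from MALAT1 in the joint fit of 8 libraries (2.30, adjusted p = 0.0595). Leaving out 1 library gave log2 fold changes of 3.75 to 3.97 for NEAT1, 2.22 to 2.46 for MALAT1, -1.19 to -1.07 for NONO, -0.58 to -0.46 for SFPQ and -0.06 to 0.03 for PSPC1. SFPQ lost its call with library size alone (-0.03) and with TMM on protein-coding genes (-0.27). PSPC1 turned to 0.03 with DESeq2 size factors and with DESeq2, 0.51 with library size alone, 0.27 with TMM on protein-coding genes and 0.01 without a filter. With column number as a replicate block, NEAT1 was 3.86, MALAT1 2.31, NONO -1.13, SFPQ -0.55 (adjusted p = 0.0055) and PSPC1 -0.01, and no call of a member changed. Across 20858 genes, the difference between NLS libraries 1 and 3 in the labelled arm had a correlation of -0.00609 with that in the control arm. This single value cannot tell whether same-numbered libraries share a culture or batch. At OMM the arms share 1 number, which allows no such fit.

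Genes called at NLS numbered 9122 higher and 3351 lower with library size alone and 212 and 2180 in the joint fit, and without 1 library 3077 to 8425 higher and 4520 to 6953 lower. With library size alone the lists had, higher and lower, 9 and 11 (other paraspeckle mRNAs), 7 and 4 (speckle mRNAs), 5 and 4 (neighbours) and 1 and 3 (RNase P and Z). With TMM on protein-coding genes speckle mRNAs had 5 and 6, and RNase P and Z 4 lower. In the joint fit 1 other paraspeckle mRNA, 1 speckle mRNA, 0 neighbours, 3 nuclear and 0 cytoplasmic non-coding RNAs were higher, and 7 speckle mRNAs, 1 neighbour and 2 genes of RNase P and Z were lower. Without 1 library 3 to 6 other paraspeckle mRNAs, 0 to 3 neighbours and 1 to 3 cytoplasmic non-coding RNAs were higher, and 4 to 11 genes of RNase P and Z were lower.

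At OMM no member passed under any alternative, and without 1 library the log2 fold change was -1.49 to 0.14 for NEAT1, -1.84 to 0.20 for MALAT1 and -0.27 to 0.06 for NONO. Genes called higher and lower were 48 and 16 with library size alone, 321 and 145 without a filter, 1000 and 873 with DESeq2, 1 and 0 without the robust step, 199 and 101 in the joint fit, and 128 to 335 and 76 to 279 without 1 library. Of the listed genes 3 were lower without a filter, 3 higher and 10 lower with DESeq2, 1 lower in the joint fit and 0 to 6 lower without 1 library.

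For NLS effect minus OMM effect, NEAT1 was 4.56 without a filter (adjusted p = 0.0857) and 3.70 to 5.34 without 1 library. MALAT1 passed with library size alone and with DESeq2, 3.88 in both (adjusted p = 0.0481 and 4.35e-05), and was 2.08 to 4.17 without 1 library. NONO did not pass with DESeq2 size factors (-0.64), library size alone (-0.59) or TMM on protein-coding genes (-0.69), and was -1.21 to -0.86 without 1 library. SFPQ turned to 0.06 with DESeq2 size factors and with DESeq2, 0.10 with library size alone and 0.01 with TMM on protein-coding genes. Genes called lower numbered 626, 584 and 719 under those 3 scalings, genes called higher 676 without a filter and 2290 with DESeq2, and without 1 library 0 to 1454 were higher and 0 to 2748 lower. The ratio of the 2 non-coding RNAs to the mRNAs at NLS had a log2 difference of 3.12 per kb and 3.47 without SFPQ. Where a value changed, the cause was not tested.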
